A study of Mus musculus with 10 samples.

Results

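Antioxidant enzymes remove superoxide, hydrogen peroxide and lipid peroxides and keep glutathione and thioredoxin in their reduced forms. The set described here was defined by gene symbol as Cat, Sod1, Sod2, Gpx1, Gpx4, Prdx1, Gclc, Gsr, Hmox1 and Txn1, and every probe set annotated to 1 of these 10 symbols was taken. Of the 10, 6 had a probe set of their own, 1 each: Sod1, Sod2, Gpx1, Gpx4, Gclc and Txn1, out of 7417 genes with a probe set of a single symbol. Prdx1 was listed only on 2 probe sets that also carry the predicted gene Gm21399, and those are given apart. Cat, Gsr and Hmox1 were not analysed here. All 6 probe sets lay above the low-signal limit on all 10 arrays and were tested.

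Liver RNA of 10 individual female mice, 6 weeks old, fed chow and not fasted, was hybridised to Affymetrix MG_U74A arrays, 1 mouse per array. The 5 mice of the first group were SCD1 -/-, without the desaturase that turns saturated into monounsaturated fatty acids. Their background mixed 129 with C57BL/6J, and the 5 mice of the second group were C57BL/6J with intact SCD1 (SCD1 +/+). Null 1 to null 5 below stand for the SCD1 -/- arrays and WT 1 to WT 5 for the SCD1 +/+ arrays, numbered as the labels number them. Genotype, genetic background and the production lot of the chips divided the arrays in the same way and cannot be told apart, and which part of Scd1 was disrupted is not stated in the labels.

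In the deposited values, medians lay between 830 and 862 on the null arrays and between 788 and 847 on the wild-type arrays, and array pairs correlated at 0.957 to 0.991 across probe sets. The arrays were hybridised in 3 fluidics runs, told apart by their recorded times: null 1 to null 4 in run 1, null 5 with WT 1, WT 2 and WT 3 in run 2, and WT 4 and WT 5 in run 3. The brightest Scd1 probe set was lower in SCD1 -/- liver (limma adjusted p = 4.31e-08). Its log2 difference of -5.28 depends on the low-signal limit, since 3 of the 5 null arrays were at it, and was -4.72 with a limit at the 40th percentile and -5.58 with one at the 10th. Of 9 hepatocyte markers 8 had a probe set and all 8 passed the filter, with Ttr between 4959 and 8046. Over all 7569 probe sets tested, 270 were called higher and 209 lower in SCD1 -/- liver at a limma adjusted p under 0.05. On the deposited scale the split was 480 higher and 96 lower.

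The enzymes act in sequence. Sod1 in the cytosol and Sod2 in the mitochondrial matrix turn superoxide into hydrogen peroxide, which catalase, the glutathione peroxidases and the peroxiredoxins then remove. Glutathione is built from glutamate, cysteine and glycine, with the first step made by glutamate-cysteine ligase, whose catalytic subunit is encoded by Gclc, and oxidised thioredoxin is restored by thioredoxin reductase. Gclc and several of the others are known targets of NRF2, a transcription factor that binds the antioxidant response element and is held back by KEAP1.

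None of the 6 antioxidant probe sets was called in either direction, where 6.33% of all tested probe sets were called, 3.57% higher and 2.76% lower. With limma, 2 of the 6, Sod2 and Gclc, had an unadjusted p under 0.05, as did 26.0% of all tested probe sets. Of the 6 differences 5 were above 0, with a median of 0.11 on the log2 scale and a range of -0.05 to 0.31. Over all tested probe sets the median was -0.02 and 47.0% were above 0. The median of the 6 depended on the scale: it was 0.27 on the deposited scale, where that of all probe sets was 0.06, and 0.18 with scaling to the 75th percentile, where that of all was -0.02. It was 0.21 with the fluidics run as a block. After quantile normalization Sod1, Gpx1 and Txn1 had differences within 0.05 of 0, and Sod2, Gpx4 and Gclc had larger positive values. On the deposited scale the first 3 were at 0.20, 0.12 and 0.17, none of them called. In none of the 6 did the values of the 2 groups fall apart without overlap, which 8.13% of tested probe sets did.

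**Figure D1:**
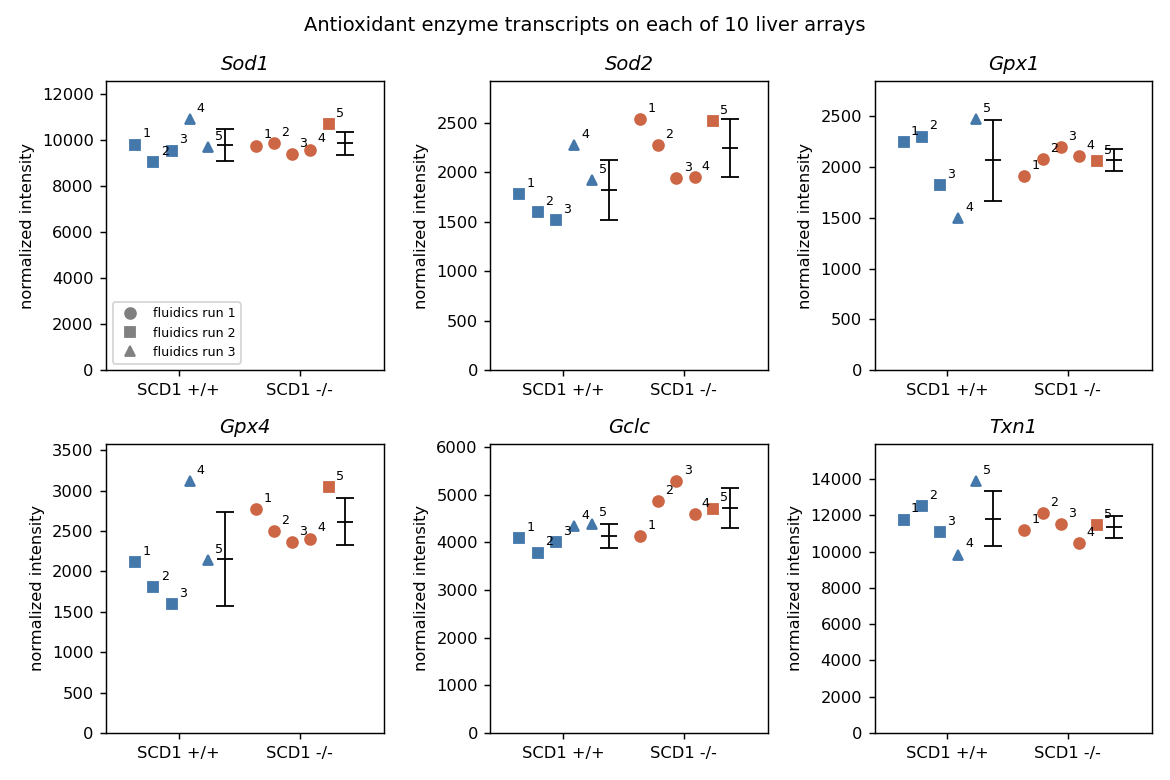
Quantile-normalized intensity (vertical axis, linear, from 0) of the 6 antioxidant enzymes on each of the 10 arrays, with replicate numbers beside the points, marker shape giving the fluidics run and bars giving mean and SD (n = 5). Array 4 of SCD1 +/+ is the highest wild-type array for Sod1, Sod2 and Gpx4 and the lowest for Gpx1 and Txn1.

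**Figure D2:**
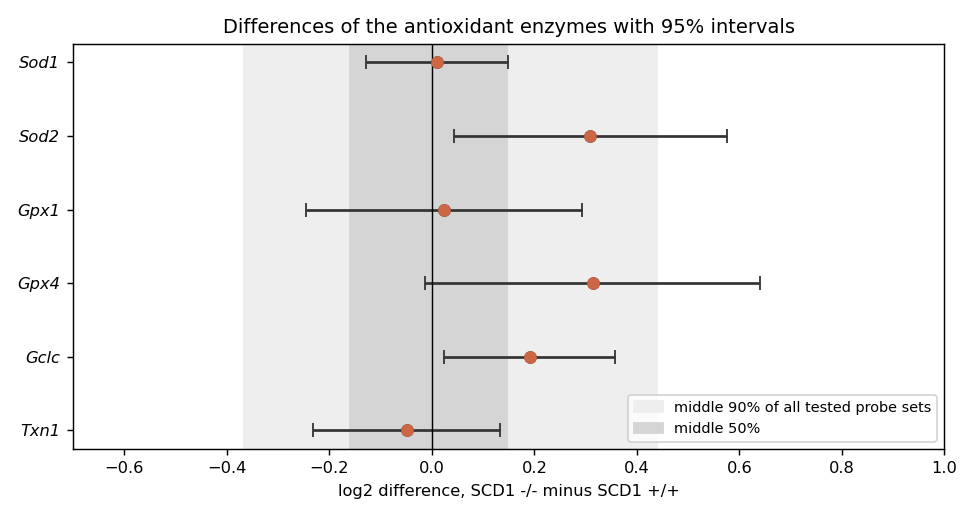
Log2 difference of each enzyme, SCD1 -/- minus SCD1 +/+ (points), with 95% intervals from limma (bars), over shading for the middle 50% and 90% of all 7569 tested probe sets. Sod2 at 0.31 and Gclc at 0.19 have intervals that stop short of 0, that of Gpx4 at 0.31 reaches -0.01, and none passed the adjusted threshold.

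The promoters of the 2 superoxide dismutase genes are shown because these enzymes catalyse the same reaction in different compartments and their array values are set side by side below. The sequences are from RefSeq, build GRCm38.p6, 250 bases before to 50 after the gene start, both on the plus strand, Sod1 at chr16:90220512-90220811 and Sod2 at chr17:13007589-13007888. Capitals mark letters of an antioxidant response element core (TGACNNNGC), a GC box, a TATA box or a CCAAT box, searched on both strands.
Sod1: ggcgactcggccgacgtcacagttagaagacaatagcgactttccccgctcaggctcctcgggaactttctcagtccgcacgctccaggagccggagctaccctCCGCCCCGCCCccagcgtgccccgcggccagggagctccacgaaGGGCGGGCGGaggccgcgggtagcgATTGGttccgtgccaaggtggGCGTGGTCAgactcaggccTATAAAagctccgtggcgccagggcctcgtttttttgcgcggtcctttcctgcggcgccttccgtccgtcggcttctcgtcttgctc
Sod2: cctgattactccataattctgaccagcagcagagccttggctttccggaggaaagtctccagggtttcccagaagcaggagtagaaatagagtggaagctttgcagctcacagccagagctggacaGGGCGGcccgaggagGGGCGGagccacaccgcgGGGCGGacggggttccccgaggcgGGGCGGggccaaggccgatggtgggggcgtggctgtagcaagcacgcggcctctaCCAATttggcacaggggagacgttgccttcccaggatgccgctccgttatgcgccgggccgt
The GC box was searched as GGGCGG, and the Sod1 window holds 1 match to the response element core, read on the minus strand from base 195 of the window, 1 TATA box spelled TATAAA from base 214, 1 CCAAT box and 4 GC boxes that overlap in pairs. The Sod2 window holds 4 separate GC boxes and 1 CCAAT box, and neither of the other motifs. Of 32851 mouse promoter windows of the same length 12.4% hold the response element core, 13.6% the TATA box, 35.7% the GC box and 37.4% the CCAAT box. Of the other members with a window, the core was matched in that of Prdx1 and not in those of Gpx1, Txn1, Cat or the 4 of Gpx4. These are matches of letters within the windows and were not tied to any array value.

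Sod1, the copper and zinc superoxide dismutase of the cytosol, gave nearly the same level in both genotypes after quantile normalization. Its normalized intensity was 9739.6, 9844, 9383, 9567 and 10686 on null 1 to null 5. On WT 1 to WT 5 it was 9786, 9025, 9528, 10908 and 9683. The groups overlapped throughout, and the single highest value was that of WT 4. The means were 9844 ± 502 (SD, n = 5) and 9786 ± 692 (SD, n = 5). The log2 difference was 0.01 (SE 0.06, limma adjusted p = 0.939), with a 95% interval of -0.13 to 0.15, or -8.54% to 10.8%. The Sod1 difference was 0.20 on the deposited scale (limma adjusted p = 0.248) and 0.11 with scaling to the 75th percentile (limma adjusted p = 0.444).

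Sod2, the manganese enzyme of mitochondria, had the higher mean in SCD1 -/- liver without passing the test. Its intensity was 2539, 2269.5, 1941, 1952 and 2516 on null 1 to null 5. The values of WT 1 to WT 5 were 1782, 1593, 1517, 2276 and 1918. WT 4 lay within the range of the null arrays, while the other wild-type arrays lay below all 5 of them. The means were 2243 ± 291 (SD, n = 5) and 1817 ± 301 (SD, n = 5), a log2 difference of 0.31 (SE 0.12, limma adjusted p = 0.132). The 95% interval ran from 0.04 to 0.58, or from 3.09% to 49.0%. Without WT 4 the difference was 0.39 and the limma adjusted p = 0.0392, in a fit that called 12.4% of all tested probe sets, 6.49% higher and 5.93% lower. With all 10 arrays and array weights Sod2 was also called, at 0.37 (limma adjusted p = 0.0445). That fit called 517 probe sets higher and 497 lower, against 270 and 209 in the main fit. Without WT 3 alone the Sod2 difference was 0.25 and was not called (limma adjusted p = 0.261). Without both WT 3 and WT 4 it was 0.34 and was also not called (limma adjusted p = 0.108).

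Gpx1 and Gpx4 encode selenium-dependent peroxidases. Gpx1, the main glutathione peroxidase of the cytosol, had an intensity of 1909, 2077, 2197, 2111 and 2058.5 on null 1 to null 5. WT 1 to WT 5 gave 2243, 2299, 1824, 1497 and 2475. The wild-type arrays spanned the range of the null arrays on both sides, with WT 4 lowest and WT 5 highest of all 10. The means were 2070.4 ± 105 (SD, n = 5) and 2068 ± 399 (SD, n = 5), and the log2 difference was 0.02 (SE 0.12, limma adjusted p = 0.923, 95% interval -0.25 to 0.29).

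Gpx4, which reduces phospholipid hydroperoxides within membranes, had an intensity of 2770.1, 2499, 2362, 2405 and 3048 on null 1 to null 5. On WT 1 to WT 5 it was 2115, 1802, 1593, 3114 and 2136. WT 4 was the highest of all 10 arrays, and the other 4 wild-type arrays lay below every null array. The means were 2617 ± 289 (SD, n = 5) and 2152 ± 584 (SD, n = 5), a log2 difference of 0.31 (SE 0.15, limma adjusted p = 0.209, 95% interval -0.01 to 0.64). Without WT 4 it was 0.46 with a limma adjusted p = 0.0224, in the fit that called 12.4% of all probe sets. Without WT 3 alone Gpx4 was at 0.22 and not called (limma adjusted p = 0.403). Without both WT 3 and WT 4 Gpx4 was at 0.37 and not called (limma adjusted p = 0.065). The RefSeq table lists pseudogenes of Gpx4, and whether they share signal with its probe set was not tested.

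Gclc, the rate-limiting step of glutathione synthesis, had an intensity of 4128, 4866, 5277, 4595 and 4708 on null 1 to null 5. Wild-type values were, from WT 1 to WT 5, 4093, 3783, 4009, 4344.5 and 4392. Of the null arrays 4 lay above all wild-type arrays, and null 1 lay below WT 4 and WT 5. The means were 4715 ± 418 (SD, n = 5) and 4124 ± 251 (SD, n = 5), a log2 difference of 0.19 (SE 0.08, limma adjusted p = 0.137), with a 95% interval of 0.02 to 0.36, or 1.69% to 28.1%. On the deposited scale the Gclc difference was 0.33 and the limma adjusted p = 0.0424. That fit called 480 of all probe sets higher and 96 lower, against 270 and 209 in the main fit.

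Txn1, the cytosolic thioredoxin that reduces protein disulfides, had an intensity of 11207, 12123, 11538, 10491 and 11463 on null 1 to null 5. On WT 1 to WT 5 it was 11769, 12537, 11097, 9844 and 13878. As for Gpx1, WT 4 was the lowest and WT 5 the highest of all arrays. The means were 11365 ± 592 (SD, n = 5) and 11825 ± 1515 (SD, n = 5), a log2 difference of -0.05 (SE 0.08, limma adjusted p = 0.745, 95% interval -0.23 to 0.13). The sign of the Txn1 value turned to 0.17 on the deposited scale and 0.08 with scaling to the 75th percentile.

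Prdx1 encodes a peroxiredoxin, which removes hydrogen peroxide with thioredoxin as its reductant, but neither of the probe sets listing it can be assigned to it alone. The probe set 97055_s_at of Gm21399 and Prdx1 lay between 16703.5 and 17973 on the null arrays and between 15463 and 17078 on the wild-type arrays. Its log2 difference was 0.09 (SE 0.05, limma adjusted p = 0.279). On the deposited scale, where 480 of all probe sets were called higher and 96 lower, it was 0.28 (limma adjusted p = 0.0494). The probe set 97758_at of the same pair lay between 16361 and 17673 on the null arrays and between 15656 and 18390.3 on the wild-type arrays. Its difference was 0.00 (SE 0.06, limma adjusted p = 0.992). Both probe sets overlapped between the groups.

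Several of the enzymes varied more among wild-type than among SCD1 -/- mice. On the log2 scale the SD of Gpx1 was 0.30 over the 5 wild-type arrays and 0.07 over the 5 null arrays, and that of Gpx4 was 0.36 and 0.15. The SD was larger in wild type for 5 of the 6 enzymes, Gclc being the exception, and for 61.7% of all tested probe sets. Without WT 4 this held for 3 of the 6 and for 52.5% of all. WT 4 stood 0.71 above the mean of the other wild-type arrays for Gpx4 and 0.43 above for Sod2, and at -0.55 for Gpx1 and -0.32 for Txn1. It was the highest or lowest wild-type array for 5 of the 6 enzymes and for 50.6% of all tested probe sets.

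Wild-type values also differed between fluidics runs for 3 of the enzymes. Among wild-type arrays alone, Sod2 was 1517 to 1782 in run 2 and 1918 to 2276 in run 3, and Gpx4 was 1593 to 2115 in run 2 and 2136 to 3114 in run 3. For Gclc the corresponding ranges were 3783 to 4093 and 4344.5 to 4392. Both wild-type arrays of run 3 were thus above all 3 of run 2 for these 3 of the 6 enzymes, as for 12.6% of all tested probe sets. They were below all 3 for 0 of the 6 and for 14.3% of all. The runs overlapped among wild-type arrays for Sod1, Gpx1 and Txn1. Within run 2, which held both genotypes, null 5 exceeded all 3 wild-type arrays for Sod1, Sod2, Gpx4 and Gclc, as for 31.3% of all tested probe sets. It lay below all 3 for 0 of the 6 and for 33.6% of all, and within their range for Gpx1 and Txn1. With the run as a block the log2 differences were 0.74 for Gpx4 (limma adjusted p = 0.169), 0.63 for Sod2 (adjusted p = 0.179), 0.25 for Gclc (adjusted p = 0.412) and 0.18 for Sod1 (adjusted p = 0.44), none of them called. Those of Gpx1 and Txn1 were both -0.04 (limma adjusted p = 0.962 and 0.934). Each of these rests on 1 null array. The part of the run in the differences over all 10 arrays was not tested further.

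**Figure D3:**
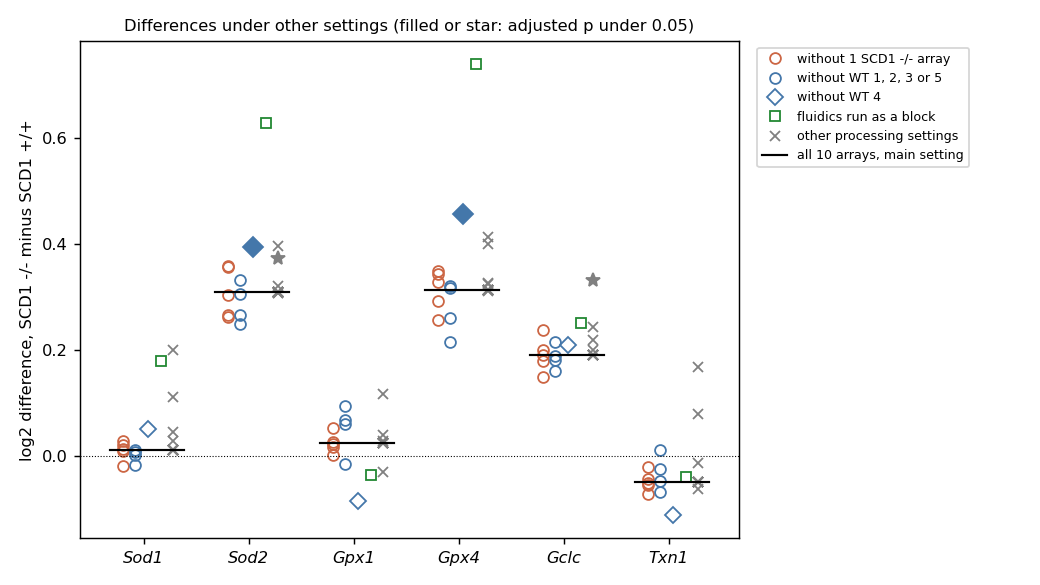
Log2 difference of each enzyme, SCD1 -/- minus SCD1 +/+, with all 10 arrays (black line), with single arrays left out, with the fluidics run as a block and under the other processing settings, where filled symbols and stars mark an adjusted p under 0.05. Leaving out WT 4 calls Sod2 at 0.39 and Gpx4 at 0.46. Array weights call Sod2 at 0.37 and the deposited scale calls Gclc at 0.33. These settings call 491, 517 and 480 of all probe sets higher and 449, 497 and 96 lower (main setting: 270 and 209). Leaving out WT 3 gives 0.25 for Sod2 and 0.22 for Gpx4, neither called.

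The remaining genes of the glutathione and thioredoxin systems were read from a list of 35, of which 17 had a probe set and 15 were tested, each by its brightest probe set. With limma no gene of the 15 was called, against 6.33% of all tested probe sets. At an unadjusted p under 0.05 there were 2, or 13.3% against 26.0% of all, and the median difference of the 15 was 0.05. Txnrd1, the cytosolic reductase that restores thioredoxin, had the value farthest from 0. Its intensity was 2604, 2463, 1751, 2007 and 2349.8 on null 1 to null 5. Those of WT 1 to WT 5 were 1677, 1624.5, 1533, 2189 and 1557. WT 4 lay within the null range and the other wild-type arrays below it, as for Sod2. The Txnrd1 difference was 0.38 (SE 0.13, limma adjusted p = 0.0874). Without WT 4 it was 0.47 (limma adjusted p = 0.0229), in the fit that called 12.4% of all tested probe sets. The other 14 lay between -0.11 and 0.20, among them Gss, glutathione synthetase, at 0.10 and Gpx3, the plasma glutathione peroxidase, at 0.00.

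NRF2 itself and genes placed in its pathway were read from a list of 38, of which 30 had a probe set and 28 were tested. Of these 2 rose and 0 fell, or 7.14% against 6.33% of all tested probe sets, and the median difference was 0.02. At an unadjusted p under 0.05 there were 10, or 35.7% against 26.0% of all, 4 above 0 and 6 below. The 4 above 0 were Cbr1 and Gstp1, both called, and Gsta4 at 0.52 and Ugdh at 0.34, neither called. The 6 below 0, none of them called, were Mafg, Maff, Gsta3, Abcc3, Pgd and Tkt, with differences between -0.45 and -0.14. Gsta4, Ugdh and these 6 are named here after their values were seen. Cbr1, carbonyl reductase, had a log2 difference of 0.42 (SE 0.09, limma adjusted p = 0.0202) and so rose. Its intensity was 1614, 1424, 1722, 1419.5 and 1488 on null 1 to null 5, and 1144, 1123, 1130.3, 1271 and 1058 on WT 1 to WT 5. Every null array exceeded every wild-type array for Cbr1, and the groups did not overlap for 8.13% of all tested probe sets. With the fluidics run as a block Cbr1 was at 0.39 and not called, in a fit that rests on 1 null array and called few of all probe sets. With the replicate block the limma adjusted p of Cbr1 was 0.0635, in a fit that called 151 of all probe sets higher and 68 lower.

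Gstp1, a glutathione S-transferase, rose by 0.37 (SE 0.10, limma adjusted p = 0.0464). Its intensity was 15537, 15001, 20697, 17491 and 18957 on null 1 to null 5, and 15044, 15537, 12445, 12666 and 12146 on WT 1 to WT 5. The groups overlapped, since WT 1 and WT 2 reached the level of null 1 and null 2. The Gstp1 call was lost under 18 of 25 alternatives, among them the removal of any 1 null array (limma adjusted p from 0.0522 to 0.107) or of WT 1, WT 3, WT 4 or WT 5 (0.0503 to 0.105). The transcription factor gene Nfe2l2, which encodes NRF2, had a difference of 0.09 (SE 0.13, limma adjusted p = 0.693). Keap1 was at 0.31 (SE 0.15, adjusted p = 0.215), with 2 wild-type arrays at the low-signal limit. Nqo1, a quinone reductase often used as a readout of NRF2, was at -0.19 at its tested probe set (SE 0.14, limma adjusted p = 0.411). Without null 1 it was at -0.06 (limma adjusted p = 0.764). The other Nqo1 probe set was at the low-signal limit on every array and was not tested. Gclm was not analysed here.

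Genes grouped as oxidant-producing, NADPH oxidase subunits and nitric oxide synthases among them, were read from a list of 26, of which 17 were tested. Of these 1 rose and 0 fell, or 5.88% against 6.33% of all tested probe sets. With limma 4 had an unadjusted p under 0.05, or 23.5% against 26.0% of all. The median difference was -0.04. Dmgdh, the mitochondrial dimethylglycine dehydrogenase, which passes electrons chiefly to the electron transfer flavoprotein, rose by 0.45 (SE 0.06, limma adjusted p = 0.00311). Its intensity was 4673, 4795, 4903, 5144 and 4807 on null 1 to null 5, and 3416, 3712, 3689.6, 3697 and 3341 on WT 1 to WT 5. The groups for Dmgdh did not overlap, as for 8.13% of all tested probe sets. With the fluidics run as a block, and within run 2, the Dmgdh difference was 0.42 and was not called. Both of these fits rest on 1 null array and called few of all probe sets. The list's other members included Cyp2e1, a microsomal cytochrome P450, at 0.23 (SE 0.41, adjusted p = 0.754) and Uox, urate oxidase, at 0.23 (SE 0.13, adjusted p = 0.272). The peroxisome, which houses catalase, was read from a list of biogenesis genes that also held transport genes such as Abcd3 and Slc25a17. Of the 13 tested genes in that list, 0 were called by limma, against 6.33% of all tested probe sets. An unadjusted p under 0.05 was found for 3, or 23.1% against 26.0% of all, and the median difference of the 13 was 0.07.

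**Figure D4:**
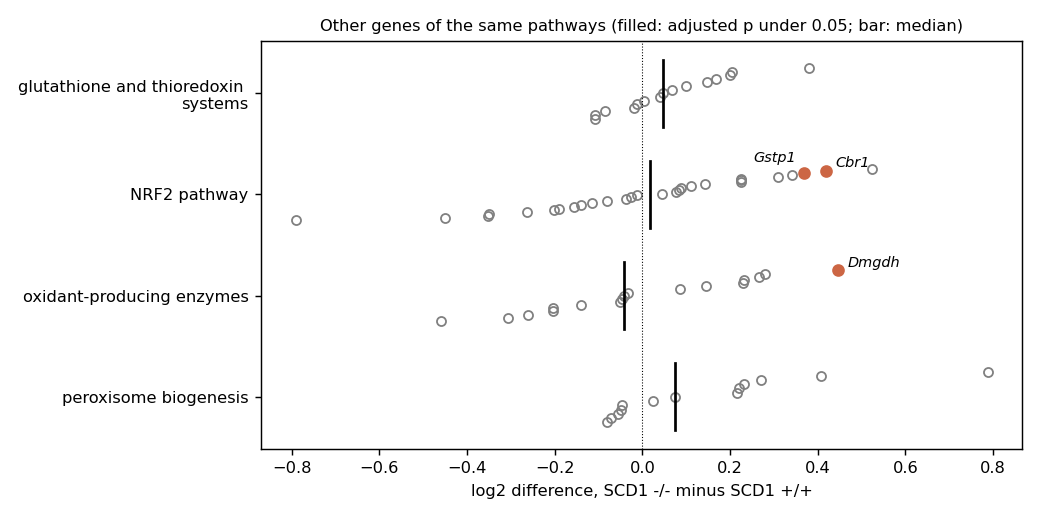
Log2 difference, SCD1 -/- minus SCD1 +/+, of every tested gene in the 4 lists (1 circle per gene, filled where the adjusted p was under 0.05, black bar at the median). The list medians lie between -0.04 and 0.07, and Cbr1, Gstp1 and Dmgdh are the called genes.

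In whole liver, fewer cells of a type and less RNA per cell cannot be told apart. No marker gene was called by limma in any of the 10 cell type lists, of 42 genes tested, where 6.33% of all tested probe sets were called, and 6 had an unadjusted p under 0.05, or 14.3% against 26.0% of all. All 7 tested macrophage markers were below 0, with a median of -0.16, and all 4 tested endothelial markers above 0, with a median of 0.27. The summed intensity of the 9 macrophage markers with a probe set was 14074 to 15190.5 on the null arrays and 14574 to 24990.1 on the wild-type arrays, with WT 5 the highest, and the macrophage marker Adgre1 was too dim to be tested. The summed intensity of 5 red blood cell genes was 32963 to 43472 on the null arrays and 33029 to 40628 on the wild-type arrays. Of the single markers to be named, Cd68 had a log2 difference of -0.08, Hba-a1 of -0.01, Alas2 of -0.02, Alb of -0.03 and Ttr of 0.11, none of them called. The part of these cell types in the enzyme values was not tested.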

How the data were processed

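Liver RNA of 5 SCD1 -/- and 5 SCD1 +/+ mice was read on 1-colour arrays, 1 mouse per array. The authors deposited whole-number intensity values for 10043 probe sets. The summary of probe pairs and its scaling are not stated in the labels or headers. Arrays' trimmed means differed by 19.8%, so intensities were quantile normalized after removal of 66 control probe sets. Values were floored at the 25th percentile (intensity 351), taken to log2, and kept where above the floor on at least 5 of 10 arrays, leaving 7569 of 9977 probe sets. Gene names are those of the platform's annotation, checked by gene ID against RefSeq (GRCm38.p6). 8724 had 1 symbol, 346 several and 907 none.

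The two-sided test of SCD1 -/- against SCD1 +/+ was that of limma 3.58.1 (lmFit, eBayes with trend; R 4.3.3), Benjamini-Hochberg adjusted over all kept probe sets. The procedure was tested on simulated data with noise independent between arrays and without runs or lots. The planted differences were larger than those of the antioxidant enzymes, so that test does not cover differences of their size. Precision is limited by having 5 arrays per group, at a median residual SD of 0.18 (log2). Members and lists were chosen with earlier results of these data known. The genes to name were all members, the called genes of each list (at most 6), Nfe2l2, Keap1, Gclm, Txnrd1 and Nqo1, 6 cell type markers and Scd1. Fluidics runs were taken from recorded hybridisation times, with a new run after a gap of over 60 minutes. Per the file headers, the cRNA amount of WT 3 was inaccurate. Alternatives were other scales, floors, filters and test settings, blocks for replicate number or run, and leaving out arrays. Replicate numbers were not taken as pairs in the main test: same-numbered arrays' deviations correlated at -0.127 to 0.108. Such values cannot show whether the mice were paired. Python 3.11.15, pandas 2.3.3 and matplotlib 3.10.9 read tables and drew plots.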

Additional observations from a re-analysis of the deposited data

Results flagged for a closer look

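A single array far from the other 4 of its group marked 3 of the 28 groups of values examined, where chance marks about 1 in 20. The gap to the nearest array was divided by the group's range on the floored log2 scale, with a limit of 0.71. For Txnrd1, WT 4 read 2189 against 1533 to 1677 on the other wild-type arrays (gap over range 0.747, and 0.78 on the intensity scale). For Nqo1, null 1 read 550.5 against 820 to 934 on the other null arrays (gap over range 0.753, but 0.702 on the intensity scale, under the limit). For Scd1, null 4 read 919, where the other null arrays lay at 90.2 to 445 and 3 of the 5 were at the floor of 351 (gap over range 0.753). On the intensity scale without the floor it was 0.572, under the limit.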

How the results depend on the processing

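Over 25 alternatives, antioxidant probe sets called lower stayed at 0. Those called higher, 0 with all arrays, numbered 1 on the deposited scale (Gclc), 1 with array weights (Sod2) and 0 to 2 with 1 array left out (Sod2 and Gpx4 without WT 4). The calls of these fits over all probe sets are given in the next paragraph. Without WT 3 and WT 4 together, a choice made after seeing the data, no antioxidant probe set was called (limma adjusted p = 0.108 for Sod2 and 0.065 for Gpx4). At an unadjusted p under 0.05 there were 0 to 3 with 1 array left out and 1 to 4 otherwise. Sod2, Gpx4 and Gclc stayed above 0 under all 25, but not all of these could move their values. The other floors and filters, the fit without trend, the robust fit and the replicate block left their differences unchanged. The run as a block and within run 2 gave the same difference as each other. Small values changed sign. With 1 array left out, Sod1 ran from -0.0201 to 0.0497, Txn1 from -0.113 to 0.0108, Gpx1 from -0.0868 to 0.0945, Nfe2l2 from -0.00688 to 0.147 and 97758_at (Gm21399 and Prdx1) from -0.0288 to 0.0292. Txn1 was 0.167 on the deposited scale and 0.0779 with scaling to the 75th percentile. Gpx1 was -0.0302 with array weights, -0.0362 with the run as a block and within run 2, and -0.176 without WT 3 and WT 4. Nfe2l2 was -0.0142 with the run as a block and within run 2. 97758_at was -0.0165 with cyclic loess, -0.0203 with array weights, -0.0616 with the run as a block and within run 2, and -0.0525 without WT 3 and WT 4.

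Over all probe sets, calls higher and lower numbered 480 and 96 on the deposited scale, 163 and 121 with cyclic loess, 517 and 497 with array weights, 151 and 68 with the replicate block, 7 and 7 with the run as a block and 0 and 1 within run 2. No filter gave 152 higher and 151 lower over 9977 probe sets. The cyclic loess fit also tested all 9977, so its counts differ from the main fit in the filter as well as the scale. With 1 array left out, calls higher and lower were 102 to 491 and 62 to 449, the highest of both without WT 4. Calls higher in the NRF2 list numbered 1 with cyclic loess, the 10th percentile floor, the pseudocount of 16, no filter or no trend, 0 with the replicate block, the run as a block or within run 2, and 1 to 2 with 1 array left out, with 0 to 1 lower. The oxidant-producing list had 0 higher with the run as a block or within run 2, 1 lower with array weights or without WT 3 and WT 4, and 0 to 2 lower with 1 array left out. Calls higher in the glutathione and thioredoxin list were 1 with array weights and 0 to 1 with 1 array left out, and in the peroxisome list 1 on the deposited scale and 0 to 1 with 1 array left out. The replicate block called no antioxidant probe set (adjusted p = 0.169 for Sod2, 0.211 for Gpx4 and 0.215 for Gclc) and ended the calls of Cbr1 and Gstp1. Beyond these values the causes were not tested. Each fit within run 2 or with the run as a block has 1 null array in the comparison, which is assumed to vary like the others. The array with a remark on its cRNA, WT 3, is among those left out 1 at a time. Without it Sod2 was at 0.248 and Gpx4 at 0.215, the lowest values of each with 1 array left out.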
